A study of Mus musculus with 16 samples.

Results

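Transcripts of 10 intercalated disc genes were measured in the ventricles of neonatal mice. They are the gap junction gene *Gja1*, the desmosomal genes *Dsp*, *Pkp2*, *Jup*, *Dsg2* and *Dsc2*, the adherens junction genes *Cdh2* and *Ctnna3*, the scaffold gene *Tjp1*, and *Nrap*. The genes were listed by name from the 51912 genes of the deposited count table, and all 10 were among the 20159 genes tested. The 16 libraries form 4 groups of 4. WT SH are C57BL/6J mice after sham surgery, and WT MI are mice of the same strain after myocardial infarction (MI). KO SH and KO MI are *Lrrc10-/-* mice, a whole-body deletion on a C57BL/6 background, after sham surgery and after MI. Surgery was at postnatal day 1, and the whole ventricles were taken 7 days later in all 4 groups. A coronary artery was ligated in the MI groups alone, whose ventricles held tissue above and below the ligation. The labels call the libraries quadruplicates of sex-balanced groups and name no animal or batch, so the p-values measure the spread between these libraries.

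Cardiomyocytes are joined end to end at intercalated discs. There, gap junctions pass current from cell to cell, while desmosomes tie the intermediate filaments, and adherens junctions the actin of the last sarcomere, to the membrane. In the neonatal heart these junctions lie along the whole cell surface, and they gather at the cell ends as the heart matures. Inherited changes in desmosomal genes are a known cause of arrhythmogenic cardiomyopathy. *Lrrc10* encodes a leucine-rich repeat protein made in cardiomyocytes.

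Library totals lay between 33783874 and 57470159 counts. *Lrrc10* had between 1075 and 1850 counts in each WT library and 0 in each of the 8 KO libraries, where the floor of 3 counts corresponds to at most 0.0858 CPM, the counts scaled to a common TMM-adjusted library total. Transcripts of Y-linked genes were abundant in all 4 WT SH libraries and in 2 of 4 libraries of each other group. The label of sex-balanced groups is thus not borne out for WT SH. The deepest library, WT SH replicate 1, had the highest summed level of 11 cardiomyocyte marker genes, at 45687 CPM. KO MI replicate 2 stood apart in the sum of 4 atrial marker genes (2427 CPM, against 43.9 to 856 CPM in the other libraries). Nearly all of that sum was *Nppa*, at 2395 CPM. Within KO MI, *Myl4*, *Myl7* and *Sln* were instead highest in replicate 3, at 66.3, 9.61 and 2.95 CPM. The sum of 6 skeletal muscle genes was 56.4 CPM in KO MI replicate 2 and 78.3 CPM in KO MI replicate 7, against 1.21 to 7.34 CPM elsewhere. The cardiomyocyte sum, a check of the labelled tissue, was at least 29990 CPM in every library.

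The 10 genes differed widely in abundance. Per kilobase of canonical transcript, a scale on which genes can be compared, the level in WT SH was highest for *Gja1* at 183 ± 10.2 CPM per kb (mean ± SD, n = 4). *Dsp* and *Cdh2* followed at 101 ± 13.1 and 89.2 ± 8.49 CPM per kb, and their libraries overlapped. *Nrap* was at 40.1 ± 2.87, *Tjp1* at 27.6 ± 0.990, *Jup* at 23.7 ± 0.970, *Pkp2* at 20.6 ± 1.05 and *Dsg2* at 15.2 ± 0.577 CPM per kb, and no neighbours among these overlapped. The lowest levels were those of *Ctnna3*, at 11.6 ± 0.325 CPM per kb, and *Dsc2*, at 11.1 ± 0.767 CPM per kb, which overlapped. *Gja1* was first, *Nrap* came next after *Dsp* and *Cdh2*, and *Dsc2* was last in each group, while *Dsp* and *Cdh2* changed places after MI, as did *Jup* and *Tjp1* in KO SH. The order depends on the length taken: per kilobase of all annotated exons *Dsp* ranked first, *Gja1* second and *Pkp2* last. In counts, the lowest member was *Dsc2* in KO MI, with at least 1447 counts in a library.

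Sequence before the transcript start is shown for *Pkp2* and *Ctnna3*, a pair of members that had an adjusted p under 0.1 in a comparison described later and have no annotated exon in the 250 bases before their start (GRCm39, GENCODE M39, 5′ to 3′). The start is that of the canonical transcript, or the outermost annotated start within 200 bases of it. For *Ctnna3* the window lies inside the annotated gene, which begins at position 63265877. Capitals mark matches, on either strand, to 5 motifs. The core promoter motif searched was TATAAA. The motif of the GATA family of cardiac factors was searched as AGATAA. That of the TEAD family, which acts with YAP in the Hippo pathway, was searched as CATTCC. The GC box bound by Sp family factors was searched as GGGCGG. The E-box of basic helix-loop-helix factors was searched as CACGTG.
*Pkp2*, chr16:16030894-16031143, plus strand: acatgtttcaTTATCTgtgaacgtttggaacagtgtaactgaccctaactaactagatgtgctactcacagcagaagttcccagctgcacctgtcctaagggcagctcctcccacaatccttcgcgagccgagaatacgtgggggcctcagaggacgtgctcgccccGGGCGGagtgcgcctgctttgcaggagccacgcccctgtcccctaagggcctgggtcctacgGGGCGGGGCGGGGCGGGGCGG
*Ctnna3*, chr10:63293039-63293288, plus strand: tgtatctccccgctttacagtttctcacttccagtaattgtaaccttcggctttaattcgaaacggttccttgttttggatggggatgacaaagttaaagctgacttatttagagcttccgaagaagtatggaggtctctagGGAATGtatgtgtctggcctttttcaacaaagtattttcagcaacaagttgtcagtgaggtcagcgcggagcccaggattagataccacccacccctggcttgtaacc

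The window before *Ctnna3* held 1 TEAD motif, and that before *Pkp2* held 1 GATA motif and 5 GC boxes, 4 of them in a run that ends at the transcript start. Among 21770 protein-coding windows of this length, 12.2% held the TEAD motif, 9.95% the GATA motif and 34.1% the GC box, and 12.1% and 6.03% held the TATA box and the E-box, which neither of these windows held. The GC content was 61.6% before *Pkp2* and 44.8% before *Ctnna3*, against a median of 52.4% over all windows. These matches are a description of the letters and were not related to the transcript levels.

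No disc gene changed past the thresholds used for a called gene (a Benjamini-Hochberg adjusted p below 0.1 in edgeR's quasi-likelihood test, together with a log2 difference of 0.5 or more in either direction) in any comparison. The count was 0 of 10 between KO SH and WT SH, where 5.01% of all genes were called, and 0 of 10 between KO MI and WT MI, where 1.73% were. It was also 0 of 10 between WT MI and WT SH (2.77% of all genes), between KO MI and KO SH (7.41%), and for the interaction, the KO difference after MI minus that after sham surgery (0.0248%). At an unadjusted p under 0.05 these comparisons held 5, 2, 3, 5 and 2 of the genes, and DESeq2 called 0 in each. The share of all genes by these measures is not given beside these counts, so nothing particular to the members is read from them. Smaller shifts did pass the adjusted p alone, a count that was added after the called counts were known to be 0. By that measure 5 of 10 genes changed between KO SH and WT SH, with 12.3% of all genes changing, and 5 of 10 between KO MI and KO SH, with 17.5%. No member passed between KO MI and WT MI (3.07% of all genes) or between WT MI and WT SH (5.3%).

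In sham-operated ventricles the transcripts of 4 disc genes were higher without *Lrrc10* and that of 1 was lower. *Dsg2*, *Cdh2*, *Pkp2* and *Jup* rose in KO SH, where 5.11% of all genes rose, and *Dsc2* fell, where 7.21% of all genes fell. In KO MI, compared with KO SH, *Jup*, *Gja1*, *Ctnna3*, *Dsg2* and *Tjp1* fell, as did 7.31% of all genes, and none rose. With each of the 8 sham libraries left out in turn, *Jup* and *Dsc2* passed between KO SH and WT SH in all 8 fits, whereas *Dsg2* passed in 7, *Pkp2* in 3 and *Cdh2* in 2, so that 3 to 5 members passed. Both comparisons use the same 4 KO SH libraries, so a high level in these libraries adds to the rise in the one and the fall in the other. The share of counts from the mitochondrial ribosomal RNA *mt-Rnr2* was also higher in KO SH (37.1 to 37.6%) than in WT SH (35.7 to 36.3%) and KO MI (29.8 to 35.0%) without overlap, with WT MI at 34.05 to 34.8%, and its part in these values was not tested. WT SH differed from the other groups in its Y-linked transcripts, and with a term for libraries high in *Xist* the same 5 members passed in each comparison. No WT SH library was high in *Xist*, so the term rests on the other groups. A sex difference within WT SH could not be estimated, so comparisons with WT SH take that of the other groups. The plot of values by library shows the 10 genes.

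**Figure D1:**
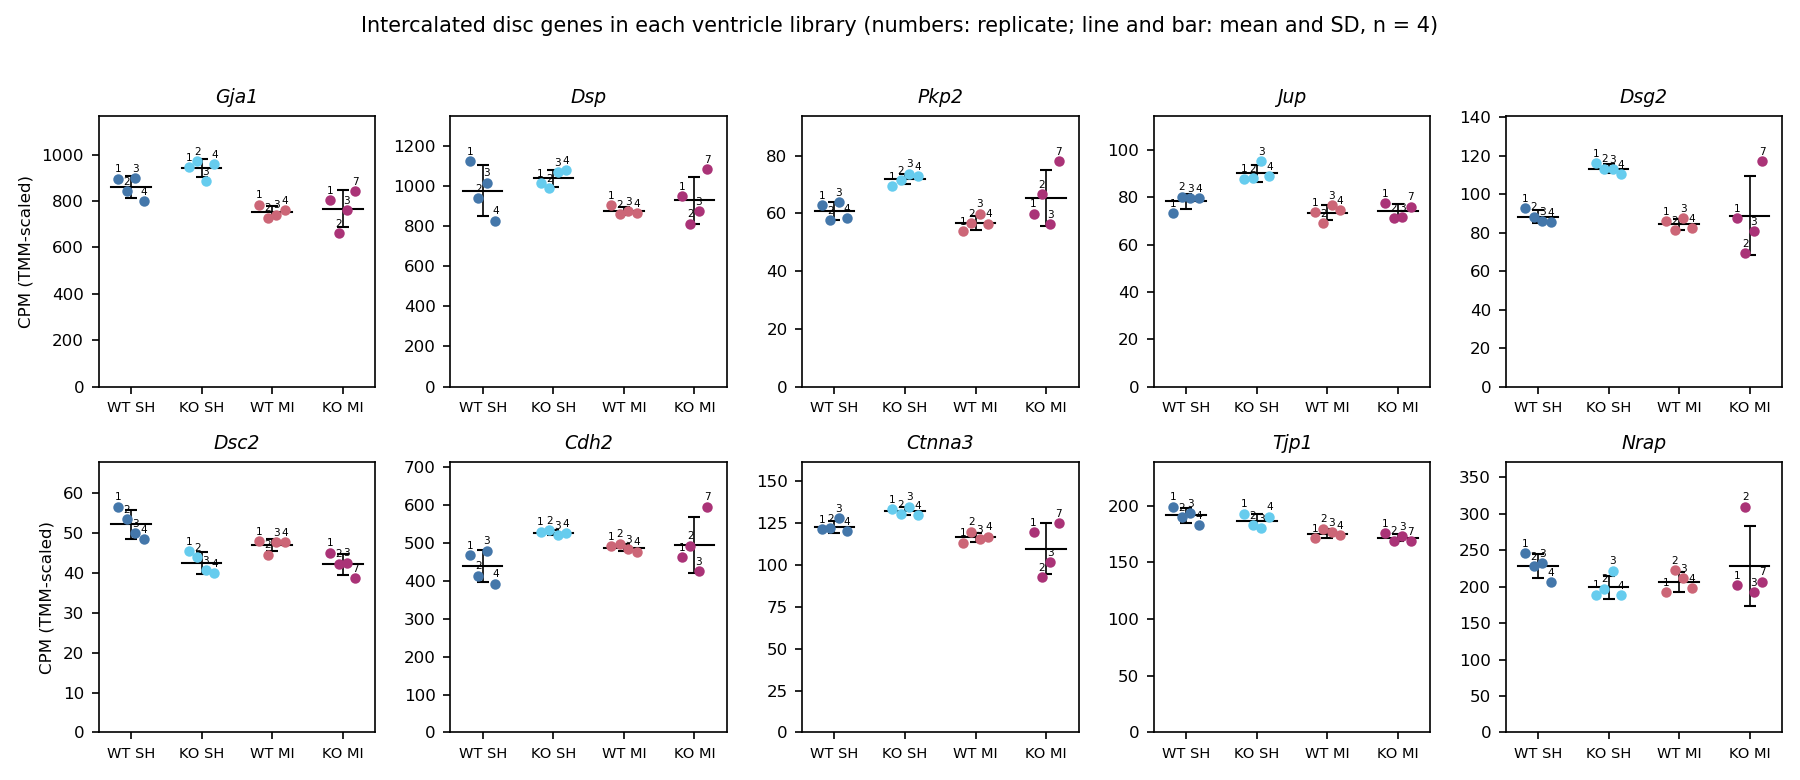
Level of each of the 10 disc genes in CPM (y axis, from 0) in the 16 libraries by group (x axis). Points are libraries with their replicate number, and lines and bars are the mean and SD of 4 libraries. The 4 KO SH libraries lie above the 4 WT SH libraries for *Dsg2*, *Cdh2*, *Pkp2* and *Jup* and below them for *Dsc2*, and KO MI replicate 7 lies at the top of KO MI for 6 genes.

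*Gja1* encodes connexin 43, the main channel of ventricular gap junctions (ENSMUSG00000050953, chr10:56253241-56278609, plus strand, GRCm39). *Gja1* was at 897, 843, 900.2 and 800.2 CPM in WT SH (replicates 1 to 4) and at 947, 974, 885 and 959 CPM in KO SH. In WT MI *Gja1* was at 785, 728, 742 and 762 CPM, and in KO MI (replicates 1, 2, 3 and 7) at 805, 661, 762 and 842 CPM. Each WT MI library was below each WT SH library and each KO MI library below each KO SH library, while WT SH and KO SH overlapped. The fall between KO SH and KO MI was 0.29 on the log2 scale (0.816-fold, 95% interval 0.740 to 0.900, edgeR adjusted p = 0.0103). Between WT SH and WT MI the log2 difference was -0.19 (SE 0.067, edgeR adjusted p = 0.147), and the exact permutation p was 0.0286, the smallest that 4 libraries against 4 can give. DESeq2 gave this WT difference an adjusted p of 0.0811. The differences in WT and KO were not shown to be unequal: the interaction was -0.10 (SE 0.095, edgeR adjusted p = 0.663).

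The desmosome was represented by 5 genes. *Dsp* encodes desmoplakin, the plakin that links the plaque to desmin filaments (ENSMUSG00000054889, chr13:38335230-38382553, plus strand). Levels of *Dsp* were 1124, 938, 1016 and 826 CPM in the WT SH replicates and 1015, 987, 1068 and 1078 CPM in the KO SH replicates, in order. With MI, the WT libraries had 903, 859.8, 873 and 864 CPM and the KO libraries 948, 811, 873 and 1084 CPM. WT SH and KO MI had the widest spread, and all pairs of groups compared overlapped. The log2 differences lay between -0.16 and 0.087, with edgeR adjusted p-values from 0.266 to 0.782 in the 4 comparisons. The exons of *Dsp* overlap those of *Gm10129* on the opposite strand.

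*Pkp2* encodes plakophilin 2, the armadillo protein of the cardiac desmosomal plaque (ENSMUSG00000041957, chr16:16031144-16090586, plus strand). *Pkp2* was at 62.9, 57.8, 63.9 and 58.4 CPM in WT SH (replicates 1 to 4) and at 69.5, 71.6, 73.8 and 72.9 CPM in KO SH. The WT MI libraries had 54.0, 56.7, 59.9 and 56.5 CPM of it, and those of KO MI had 59.97, 66.8, 56.2 and 78.3 CPM. All KO SH libraries were above all WT SH libraries. The rise was 0.25 on the log2 scale (1.19-fold, 95% interval 1.06 to 1.33, edgeR adjusted p = 0.0603, exact permutation p = 0.0286). It did not pass without WT SH replicate 2 or 4 or without KO SH replicate 2, 3 or 4, with adjusted p-values from 0.106 to 0.149. After MI the difference of KO from WT was 0.20 (SE 0.077, edgeR adjusted p = 0.257), with libraries that overlapped. This MI difference was 0.10 (adjusted p = 0.402) without KO MI replicate 7, the highest of its group, and 0.27 (adjusted p = 0.0950) without KO MI replicate 3, the lowest. It was 0.032 (adjusted p = 0.916) without both KO MI replicates 2 and 7.

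*Jup* encodes plakoglobin, an armadillo protein found in both desmosomes and adherens junctions (ENSMUSG00000001552, chr11:100259784-100291103, minus strand). Levels of *Jup* were 73.4, 80.3, 79.5 and 79.6 CPM in the WT SH replicates and 87.9, 88.0, 95.4 and 88.9 CPM in the KO SH replicates, in order. Post-MI levels were 73.6, 69.1, 76.7 and 74.6 CPM in WT and 77.4, 71.4, 71.7 and 76.0 CPM in KO (replicates 1, 2, 3 and 7). The 4 KO SH libraries were the 4 highest of the 16, and the other groups lay within 69.1 to 80.3 CPM. *Jup* rose by 0.20 on the log2 scale from WT SH to KO SH (1.15-fold, 95% interval 1.07 to 1.24, edgeR adjusted p = 0.0193). It fell by 0.28 from KO SH to KO MI (0.823-fold, 95% interval 0.766 to 0.885, edgeR adjusted p = 0.00248). After MI, KO and WT differed by 0.012 (SE 0.050, edgeR adjusted p = 0.957), and the interaction was -0.19 (SE 0.070, edgeR adjusted p = 0.251), which did not pass the test. *Jup* passed in both of the first comparisons with every library left out in turn.

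*Dsg2* encodes desmoglein 2, the desmosomal cadherin of this family in heart muscle (ENSMUSG00000044393, on chromosome 18). *Dsg2* was at 93.0, 88.4, 86.2 and 85.5 CPM in WT SH (replicates 1 to 4) and at 116, 113, 113 and 111 CPM in KO SH. In WT MI *Dsg2* was at 86.2, 81.5, 87.5 and 82.4 CPM, and in KO MI (replicates 1, 2, 3 and 7) at 87.7, 69.2, 81.0 and 117 CPM. The KO SH libraries lay in a narrow band above all WT libraries, whereas KO MI held both the lowest and the highest of the 16 values. The rise from WT SH to KO SH was 0.36 on the log2 scale (1.28-fold, 95% interval 1.105 to 1.49, edgeR adjusted p = 0.0414, exact permutation p = 0.0286), the largest among the 10 genes. Without KO SH replicate 1 its adjusted p was 0.10035, just above 0.1. The fall from KO SH to KO MI was 0.35 (edgeR adjusted p = 0.0350), but the libraries overlapped and the exact permutation p was 0.143. Without KO MI replicate 7 the fall was 0.52 with an edgeR adjusted p of 9.69e-05, past both thresholds. Without KO MI replicate 2 the adjusted p was 0.103 and without KO MI replicate 3 it was 0.104, both above 0.1, so that *Dsg2* no longer passed. The exons of *Dsg2* overlap those of the antisense gene *Gm16090*.

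*Dsc2* encodes desmocollin 2, the partner cadherin of desmoglein 2, and lies beside the other desmosomal cadherin genes (ENSMUSG00000024331, on chromosome 18). Levels of *Dsc2* were 56.6, 53.5, 50.03 and 48.6 CPM in the WT SH replicates and 45.5, 44.0, 40.7 and 39.9 CPM in the KO SH replicates, in order. With MI, the WT libraries had 47.9, 44.6, 47.8 and 47.8 CPM and the KO libraries 45.1, 42.3, 42.6 and 38.7 CPM. It was the only desmosomal gene whose 4 KO SH libraries all lay below the 4 WT SH libraries. *Dsc2* fell by 0.30 on the log2 scale in KO SH (0.815-fold, 95% interval 0.744 to 0.892, edgeR adjusted p = 0.00797). After MI the KO difference was -0.16 (SE 0.062, edgeR adjusted p = 0.278), and the libraries overlapped in 1 place, with KO MI replicate 1 above WT MI replicate 2. WT MI libraries lay below WT SH libraries, with a log2 difference of -0.15 (SE 0.062, edgeR adjusted p = 0.222), and KO MI differed from KO SH by -0.011 (SE 0.062, edgeR adjusted p = 0.942). The opposite directions of *Dsg2* and *Dsc2* in KO SH are each tested against WT SH and not against each other.

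The adherens junction was represented by 2 genes. *Cdh2* encodes N-cadherin, the classical cadherin of the disc (ENSMUSG00000024304, on chromosome 18). *Cdh2* was at 468, 415, 480.3 and 393 CPM in WT SH (replicates 1 to 4) and at 530.4, 534, 521 and 527 CPM in KO SH. The WT MI libraries had 491, 498, 484 and 477 CPM of it, and those of KO MI had 464, 494, 426 and 596 CPM. KO SH varied by a coefficient of variation of 1.06%, against 9.51% in WT SH, and did not overlap it. *Cdh2* rose by 0.27 on the log2 scale in KO SH (1.20-fold, 95% interval 1.07 to 1.36, edgeR adjusted p = 0.0559). It did not pass without WT SH replicate 2 or 4 or without any 1 of the KO SH replicates, with adjusted p-values from 0.108 to 0.145. *Cdh2* was the only member with a higher mean in WT MI than in WT SH, and that difference, 0.15 (SE 0.082, edgeR adjusted p = 0.378), did not pass the test. KO MI spread from 426 to 596 CPM around WT MI, at a log2 difference of 0.021 (SE 0.082, edgeR adjusted p = 0.955).

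*Ctnna3* encodes alpha-T-catenin, which joins cadherin complexes to actin and to plakophilin 2 (ENSMUSG00000060843, chr10:63265877-64846348, plus strand). Levels of *Ctnna3* were 121, 122, 128 and 120.3 CPM in the WT SH replicates and 133, 130.4, 135 and 129.6 CPM in the KO SH replicates, in order. Post-MI levels were 113, 120.0, 116 and 117 CPM in WT and 119, 92.7, 102 and 125 CPM in KO (replicates 1, 2, 3 and 7). KO SH was above WT SH and WT MI below WT SH without overlap, by small margins. In KO SH the log2 difference was 0.10 (SE 0.071, edgeR adjusted p = 0.408), although the exact permutation p was 0.0286. From KO SH to KO MI, *Ctnna3* fell by 0.27 on the log2 scale (0.831-fold, 95% interval 0.749 to 0.921, edgeR adjusted p = 0.0216). The lowest levels were those of KO MI replicates 2 and 3. The exons of *Ctnna3* overlap those of the antisense gene *Gm28881*.

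*Tjp1* encodes ZO-1, a scaffold that binds connexin 43 at the edge of gap junctions (ENSMUSG00000030516, chr7:64945898-65177529, minus strand). *Tjp1* was at 199, 189.8, 194 and 183 CPM in WT SH (replicates 1 to 4) and at 193, 183, 180.4 and 190.3 CPM in KO SH. In WT MI *Tjp1* was at 171, 179.7, 177 and 174 CPM, and in KO MI (replicates 1, 2, 3 and 7) at 176, 169, 173 and 169 CPM. All MI libraries were below all sham libraries of their genotype, and WT and KO overlapped. From KO SH to KO MI, *Tjp1* fell by 0.12 on the log2 scale (0.921-fold, 95% interval 0.864 to 0.982, edgeR adjusted p = 0.0886). From WT SH to WT MI the difference was -0.13 (SE 0.044, edgeR adjusted p = 0.140), of about the same size, and DESeq2 gave it an adjusted p of 0.0338. The interaction was 0.0068 (SE 0.062, edgeR adjusted p = 0.974).

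*Nrap* encodes a nebulin-related protein that anchors the ends of myofibrils (ENSMUSG00000049134, chr19:56308454-56378631, minus strand). Levels of *Nrap* were 246, 228, 232 and 206 CPM in the WT SH replicates and 189, 197, 222 and 188 CPM in the KO SH replicates, in order. With MI, the WT libraries had 192, 223, 212 and 198 CPM and the KO libraries 202, 309.6, 193 and 207 CPM. KO MI replicate 2 was the highest of the 16 libraries, and the other 3 KO MI libraries lay at or below 207 CPM. KO SH was lower than WT SH by 0.20 on the log2 scale, a difference that did not pass (edgeR adjusted p = 0.330), with overlap between KO SH replicate 3 and WT SH replicate 4. In the fit of these 8 libraries alone it did pass the adjusted p, at -0.20 (adjusted p = 0.0631). The interaction, 0.34 (SE 0.16, edgeR adjusted p = 0.370), was the largest among the members and was 0.16 without KO MI replicate 2. The exons of *Nrap* overlap those of *Habp2* and *Gm17197* on the opposite strand.

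Counted over the 10 genes, the 4 libraries of KO SH and the 4 of WT SH did not overlap for 6 (18.5% of all genes tested). Between KO MI and WT MI they overlapped for every member, where 6.47% of all genes did not overlap. WT MI and WT SH did not overlap for 4 members (12.1% of all genes), nor did KO MI and KO SH for 4 (14.9%). The median log2 difference of the members was 0.12 between KO SH and WT SH, against 0.0053 for all genes. It was 0.023 against 0.0077 between KO MI and WT MI. After MI it was -0.11 in WT (all genes -0.0043) and -0.15 in KO (all genes -0.010). For the interaction the median was -0.074, against 0.0017 for all genes. The KO difference thus passed for 5 members after sham surgery and for 0 after MI, but for no single member did the interaction pass in all 16 libraries.

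**Figure D2:**
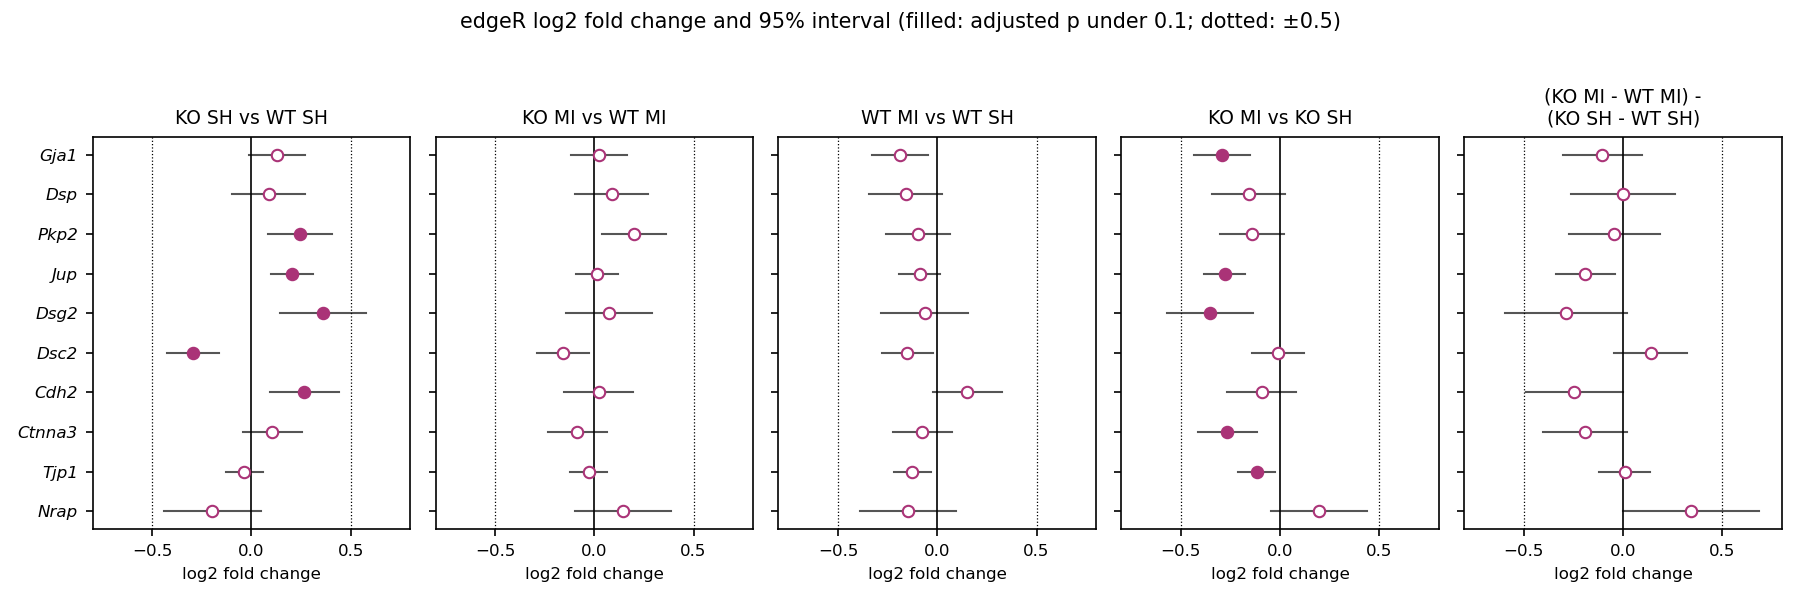
Log2 fold change (x axis) of the 10 disc genes (y axis) in the 4 comparisons and for the interaction, with the 95% interval of the edgeR fit. Filled points have an adjusted p under 0.1, and dotted lines mark 0.5 in either direction. All points lie inside the dotted lines, and filled points are on the right for 4 genes and on the left for 1 in the first panel, and on the left for 5 in the panel of KO MI and KO SH.

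The number of members that passed depended on single KO MI libraries. KO MI replicate 7 was the highest of its group for *Gja1*, *Dsp*, *Pkp2*, *Dsg2*, *Cdh2* and *Ctnna3*. It was the lowest for *Dsc2* and, just below replicate 2, for *Tjp1*. Replicate 2 was the lowest for *Gja1*, *Dsp*, *Jup*, *Dsg2* and *Ctnna3* and the highest for *Nrap*. Without replicate 7, 8 of 10 members fell between KO SH and KO MI, with *Dsp*, *Pkp2* and *Cdh2* added to the 5, while 12.8% of all genes fell. The interaction then passed for 4 members and for 9.08% of all genes, at -0.45 for *Dsg2* (edgeR adjusted p = 0.0101), -0.35 for *Cdh2* (adjusted p = 0.0364), -0.26 for *Ctnna3* (adjusted p = 0.0902) and -0.20 for *Jup* (adjusted p = 0.0976). Without replicate 2, or without replicate 3, 3 members fell between KO SH and KO MI, namely *Gja1*, *Jup* and *Ctnna3*, as did 3.46% and 4.6% of all genes. Without both replicates 2 and 7, an alternative chosen after the data were seen, 6 members and 6.5% of all genes fell, and the interaction passed for *Dsg2* and *Cdh2* and for 3.88% of all genes. Replicates 2 and 7 are the libraries with skeletal muscle transcripts noted above, and the part of these in the members' levels was not tested.

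**Figure D3:**
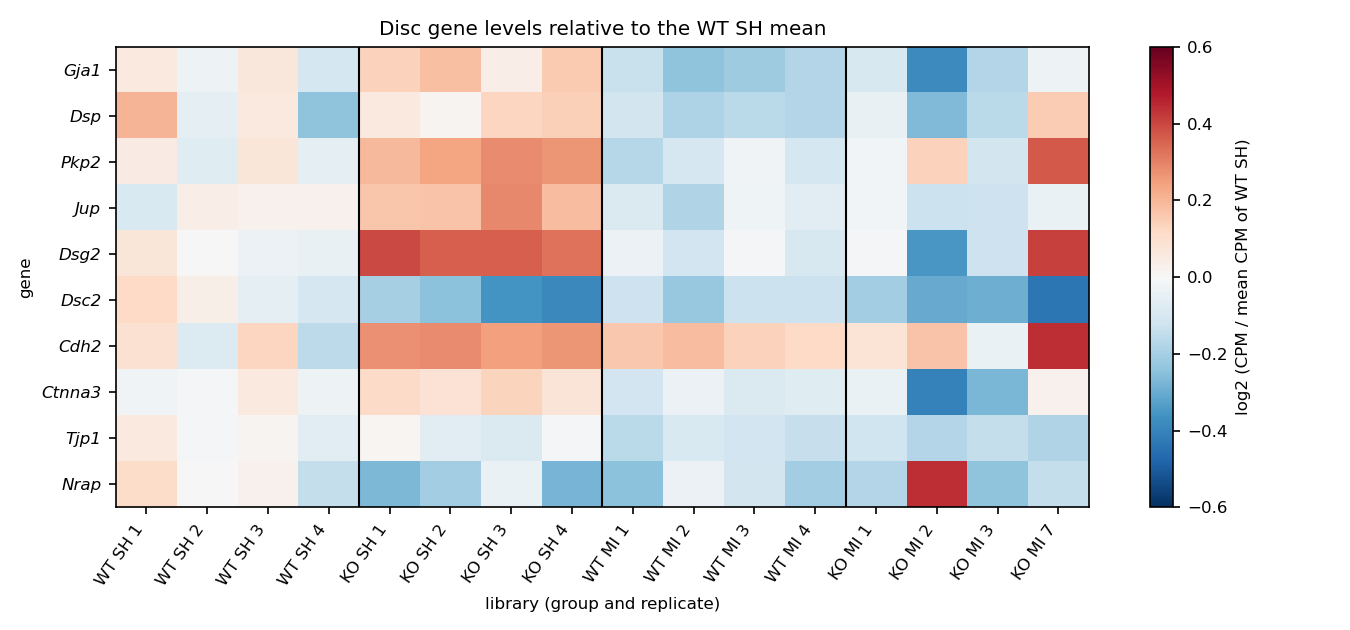
Log2 ratio of each disc gene (rows) in each library (columns, by group and replicate) to its mean CPM in WT SH. Red is higher and blue is lower than the WT SH mean, on a scale from -0.6 to 0.6. KO SH is red for 7 genes and blue for *Dsc2*, *Tjp1* and *Nrap* taken by their means, and the columns of KO MI replicates 2 and 7 differ from each other for most genes.

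Within groups, that is after subtracting each group's mean, some members varied together over the 16 libraries. Pearson's r was 0.88 for *Pkp2* with *Cdh2*, 0.82 for *Dsg2* with *Ctnna3*, 0.76 for *Gja1* with *Dsp* and 0.75 for *Gja1* with *Dsg2*. For *Gja1* with *Nrap* it was -0.64. These were the highest values and the lowest among the pairs of members. KO MI varied most for *Gja1*, *Pkp2*, *Dsg2*, *Cdh2*, *Ctnna3* and *Nrap*, so its libraries weigh most for these genes. Their coefficients of variation were 10.2 to 24.1% in KO MI and 1.06 to 9.51% in the other groups. The r values are a description of libraries that share their depth and tissue makeup. By rule, the most similar genes among 14116 are named for 4 members by r over all 16 libraries. For *Gja1* these were *Lrrk2* (0.948), *Tbc1d16* (0.945) and *Rb1cc1* (0.940). For *Jup* they were *Aplnr* (0.914), *Plgrkt* (0.905) and *Mxd4* (0.889). For *Dsc2* they were *Perm1* (0.940), *Mfn1* (0.928) and *Acad11* (0.926), and for *Ctnna3* *Fgf13* (0.965), *Cecr2* (0.949) and *F830212C03Rik* (0.944).

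Cell type markers moved beside the disc genes, and in bulk ventricles fewer cells of a type cannot be told from less RNA per cell. The summed level of 11 cardiomyocyte markers was 33215 to 45687 CPM in WT SH and 32205 to 33188 CPM in KO SH. In KO SH 7 of the 11 fell (adjusted p under 0.1), as did 7.21% of all genes. After MI the sum was 31660 to 33493 CPM in WT MI and 29990 to 33157 CPM in KO MI. When libraries were scaled by these 11 genes in place of all genes, the median of all genes moved by 0.23 on the log2 scale between KO SH and WT SH. On that scale 8 members and 29.5% of all genes rose in KO SH, with *Dsg2* at 0.60 and *Cdh2* at 0.51 past both thresholds, and *Dsc2* was at -0.056 (adjusted p = 0.603). Relative to the moved median of all genes, 0.24, *Tjp1* (0.20), *Nrap* (0.044) and *Dsc2* were lower. The other members, *Dsg2* and *Cdh2* among them, were still higher. Between KO MI and KO SH no member passed on that scale, where 12.1% of all genes did and the median of all genes moved by 0.060. The log2 differences of the 5 members that had fallen kept their direction, with *Gja1* at -0.23 (adjusted p = 0.10043), *Jup* at -0.22 (adjusted p = 0.151), *Dsg2* at -0.29 (adjusted p = 0.160), *Ctnna3* at -0.21 (adjusted p = 0.214) and *Tjp1* at -0.060 (adjusted p = 0.712).

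Fibroblast and macrophage markers rose after MI, with 3 of 7 and 2 of 6 at an adjusted p under 0.1 in WT and 4 of 7 and 5 of 6 in KO. Endothelial markers fell, 1 of 6 in WT and 3 of 6 in KO. By that adjusted p, 5.3% of all genes changed with MI in WT, in either direction. In KO 17.5% changed, and 7.31% fell. Of 4 epicardial markers, 3 rose in KO SH against WT SH, where 5.11% of all genes rose. In WT MI against WT SH 3 rose, and 2 rose in KO MI against KO SH. The sum of 7 fibroblast markers was 2176 to 2546 CPM in WT SH and 2036 to 2236 CPM in KO SH, against 2647 to 3093 CPM in WT MI and 2796 to 3140 CPM in KO MI. For 6 macrophage markers the sham libraries lay between 28.6 and 33.0 CPM, and the MI libraries between 40.2 and 82.4 CPM. The sum of 6 endothelial markers was 891 to 914 CPM in WT SH and 817 to 862 CPM in KO SH, without overlap. It was 741 to 835 CPM in WT MI and 688 to 832 CPM in KO MI. That of 4 epicardial markers was 14.6 to 16.6 CPM in WT SH and 15.9 to 20.2 CPM in KO SH. It was 22.1 to 28.7 CPM in WT MI and 15.7 to 35.8 CPM in KO MI. Most of it was *Wt1*, with a mean of 13.3 CPM in WT SH and 11.3 CPM in KO SH. The 3 that rose in KO SH had means of 0.309 to 2.70 CPM in the sham groups. The part of these changes in the lower levels of *Gja1*, *Jup*, *Ctnna3*, *Dsg2* and *Tjp1* after MI was not tested, nor was their part in the members' differences between KO SH and WT SH.

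Of 29 other genes of the disc and its attachments, 28 were tested (*Pkp1*, a plakophilin, had too few counts), and 2 were called, *Perp* and *Xirp2*. That is 1 of 28 (3.57%) in each of KO SH against WT SH, KO MI against WT MI and KO MI against KO SH, where 5.01%, 1.73% and 7.41% of all genes were called. *Perp*, a membrane protein of desmosomes best known from stratified epithelia, was lower without *Lrrc10* with either surgery. *Perp* was at 65.3, 116, 165 and 102 CPM in WT SH (replicates 1 to 4) and at 58.6, 55.6, 59.5 and 56.1 CPM in KO SH. The WT MI libraries had 119, 62.0, 103 and 125 CPM of it, and those of KO MI had 56.4, 61.4, 51.5 and 49.6 CPM. Neither KO group overlapped the WT group of the same surgery. *Perp* fell by 0.96 on the log2 scale in KO SH (0.514-fold, 95% interval 0.376 to 0.701, edgeR adjusted p = 0.0118) and by 0.90 in KO MI against WT MI (0.534-fold, 95% interval 0.392 to 0.729, edgeR adjusted p = 0.0346). The MI call was lost without WT MI replicate 1 (adjusted p = 0.117) and without WT MI replicate 4 (adjusted p = 0.126). It was also lost without both KO MI replicates 2 and 7 (adjusted p = 0.117), in edgeR's robust fit (0.112) and with the replicate number as a block (0.103). The interaction was 0.057 (SE 0.30, edgeR adjusted p = 0.953). The WT libraries spread widely, and the summed level of 7 keratinocyte markers was between 1.18 and 2.79 CPM in all 16 libraries, with *Krt5* at 0 counts in each.

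*Xirp2* encodes an actin-binding Xin repeat protein of the disc that skeletal muscle also makes. Levels of *Xirp2* were 567, 539, 477 and 447 CPM in the WT SH replicates and 183, 236, 266 and 238 CPM in the KO SH replicates, in order. Post-MI levels were 507, 499, 417 and 472 CPM in WT and 472, 2485, 553 and 203 CPM in KO (replicates 1, 2, 3 and 7). KO SH was below WT SH in every library, while KO MI ran from near the KO SH level to above all others. Between KO MI and KO SH, *Xirp2* rose by 2.01 on the log2 scale (SE 0.48, edgeR adjusted p = 0.0126), with overlap and an exact permutation p of 0.114. Without KO MI replicate 2, which had the *Nppa* and skeletal muscle levels given above, the rise was 0.83 (adjusted p = 0.0297). The difference of KO SH from WT SH, -1.14 (SE 0.47, edgeR adjusted p = 0.152), did not pass in the fit of all 16 libraries, and in the fit of these 8 libraries alone it had an adjusted p of 2.28e-05. The interaction of *Xirp2* was 2.11 (SE 0.66, edgeR adjusted p = 0.206) in all 16 libraries. It passed both thresholds without KO MI replicate 7, at 2.44 (adjusted p = 0.0182), without both replicates 2 and 7, at 1.25 (adjusted p = 0.00102), and with the replicate number as a block, at 2.18 (adjusted p = 0.0352). Without replicate 2 alone it was 0.93 (adjusted p = 0.290).

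**Figure D4:**
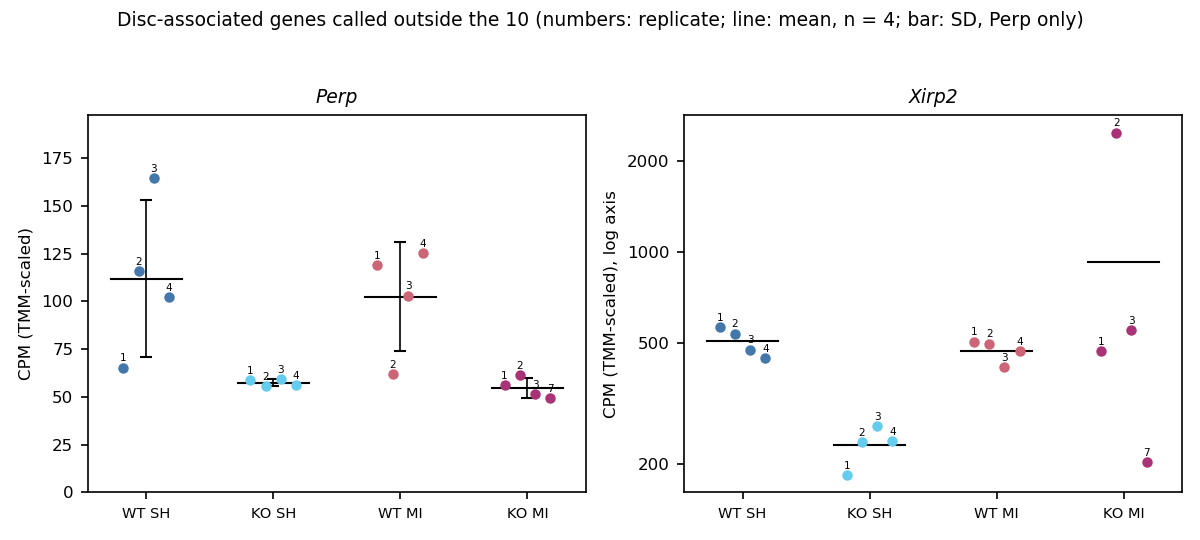
Level of *Perp* (left, linear axis from 0) and *Xirp2* (right, log axis) in CPM in the 16 libraries by group (x axis). Points are libraries with their replicate number, lines are means of 4 libraries and bars, for *Perp*, the SD. All 8 KO libraries lie between 49.6 and 61.4 CPM for *Perp*, below all WT libraries, and KO MI replicate 2 is far above the others for *Xirp2*.

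Other genes of the wider list passed the adjusted p alone, and those named here were chosen after their values were seen. *Cxadr*, the coxsackie and adenovirus receptor of the disc membrane, rose by 0.20 on the log2 scale in KO SH (edgeR adjusted p = 0.0140). It rose by 0.20 in KO MI against WT MI (edgeR adjusted p = 0.0254). *Pkp4*, a plakophilin relative, rose by 0.15 in KO SH, so that 3 of 28 genes (10.7%) passed there, against 12.3% of all genes. Between KO MI and WT MI 2 of 28 (7.14%) passed, against 3.07% of all genes. From WT SH to WT MI 2 of 28 (7.14%) passed, against 5.3%, among them *Afdn*, the adherens junction scaffold afadin, which fell by 0.26. From KO SH to KO MI 9 of 28 (32.1%) passed, 3 lower and 6 higher, against 17.5% of all genes. Among the lower ones were *Afdn* at -0.29 and the catenin gene *Ctnna1* at -0.22. The higher ones were *Xirp2*, the desmin gene *Des* at 0.42, *Panx1* at 0.42, *Sorbs2* at 0.31, *Tmem43* at 0.28 and *Bves* at 0.23. As for *Xirp2*, KO MI replicate 2 was the highest KO MI library for *Des*, *Panx1*, *Sorbs2* and *Bves*. It had 818 CPM of *Des*, 984 CPM of *Sorbs2* and 70.9 CPM of *Bves*, against KO MI medians of 533, 667 and 54.4 CPM. KO MI and KO SH overlapped for *Sorbs2*, *Tmem43* and *Bves*, and not for *Des* and *Panx1*. The interaction passed for none of the 28 in edgeR's test of all 16 libraries. At an unadjusted p under 0.05 there were 3, a count without the share of all genes beside it.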

How the data were processed

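RNA sequencing had been performed on the ventricles of 16 libraries, 4 in each group. Per the study's methods, the authors trimmed paired, strand-specific 150 bp reads with Skewer, aligned them to GRCm39 with STAR and estimated expression with RSEM. The submitters' processing notes instead name cutadapt (3.4), HISAT2 (2.2.1) and RSEM (1.1.17). The authors deposited expected counts per gene, given as whole numbers without normalization, and the annotation release is not given in the sources used here. RSEM shares reads among similar genes, and reads of antisense partners are separated only as well as the strand is. Gene names and positions came from GENCODE M39, which matched 47772 of 51912 identifiers, and the promoter windows from its GRCm39 genome. *Bves* is named Popdc1 in that release.

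Counts were tested in R (4.3.3) with edgeR (4.0.16, quasi-likelihood F-test, two-sided) after TMM normalization, in 1 fit of all 16 libraries with a coefficient per group. Tested genes had 10 or more counts in total in every group, and p-values had Benjamini-Hochberg adjustment over 20159 genes. Standard errors and intervals of log2 fold changes come from this fit, and CPM uses TMM-scaled totals. For single genes, log2(CPM + 0.05) was also compared by exact permutation, two-sided, with a smallest p of 0.0286. All members, and called genes of a wider disc list, are named. The genes most like a member were taken among those of at least 1 CPM on average, by correlation of log2(CPM + 0.05). This was done for members that the leading tests picked. The members and gene lists were chosen with earlier results of these data known. Alternatives were DESeq2 (1.42.0), its size factors, scaling by cardiomyocyte markers, other filters, a robust fit, the groups compared alone, the replicate number as a block, a term for libraries with *Xist* above 100 CPM, other thresholds, a pseudocount of 0.5 and each library left out. The script was tested on simulated data. The values of 1 gene of the wider list and 1 promoter window are not reported here. No column of values was left out, and no library was identical to another.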

Additional observations from a re-analysis of the deposited data

Results flagged for a closer look

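With 4 libraries in a group, 1 library stood far from the other 3 by Dixon's criterion in 4 of the 40 combinations of a disc gene and a group, and chance alone gives about 1 in 20. *Jup* was at 73.4 CPM in WT SH replicate 1, while the other WT SH libraries lay between 79.5 and 80.3 CPM. *Jup* was at 95.4 CPM in KO SH replicate 3, with the others between 87.9 and 88.9 CPM. Leaving out either library kept *Jup* past an adjusted p of 0.1 in edgeR's test between KO SH and WT SH. *Dsc2* was at 44.6 CPM in WT MI replicate 2, below the 47.8 to 47.9 CPM of the other WT MI libraries. *Nrap* was at 309.6 CPM in KO MI replicate 2, with the other KO MI libraries between 193 and 207 CPM. The atrial sum of that library, nearly all *Nppa*, and its skeletal muscle sum were also high (2427 and 56.4 CPM). Their part in the level of *Nrap* was not tested.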

How the results depend on the processing

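Members called stayed at 0 of 10 in each comparison except in KO SH against WT SH, where 2 were called with cardiomyocyte scaling and 5 with no minimum fold change, and in KO MI against KO SH, where 5 were called with no minimum fold change, 1 with the replicate block and 0 to 1 with a library left out (1 without KO MI replicate 7). The counts of this section are of members alone, and the share of all genes moved with the setting as well. With cardiomyocyte scaling the share of all genes higher in KO SH went from 5.11% to 29.5%. Without KO MI replicate 7 the share for the interaction went from 0.0248% to 9.08%. These counts therefore do not show a change particular to the members. The number with an adjusted p under 0.1 was 5 in KO SH against WT SH. It was 8 with cardiomyocyte scaling, 6 in the fit of the groups compared (*Nrap* added), 3 at an adjusted p under 0.05, and 3 to 5 with a library left out, being 3 without WT SH replicate 2 or 4 or any 1 KO SH replicate. *Jup* and *Dsc2* were among the members in each fit with a library left out. In KO MI against WT MI it was 0, and 0 to 1 with a library left out. In WT MI against WT SH it was 0, but 2 by DESeq2, 1 with cardiomyocyte scaling, 1 in the fit of the groups compared, 1 with the block, and 0 to 1 with a library left out. In KO MI against KO SH it was 5, but 0 with cardiomyocyte scaling, 2 in the fit of the groups compared, 8 with the block, 4 (without *Tjp1*) with DESeq2's size factors, no filter, the robust fit or an adjusted p under 0.05, and 3 to 8 with a library left out. For the interaction it was 0, but 2 with the block, 2 without KO MI replicates 2 and 7, and 0 to 4 with a library left out. The replicate numbers did not pair the libraries, since same-numbered libraries correlated between -0.17 and 0.20 in their deviations, and the block gives KO MI replicate 7, alone with its number, a level of its own. The term for *Xist*, which could not be estimated within WT SH, left the same 5 members in KO SH against WT SH and in KO MI against KO SH.

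Some log2 differences changed sign. Of the members' values, 29 did so with 1 or more libraries left out and 23 under other alternatives. None had an adjusted p under 0.1 on either side except *Tjp1* in KO SH against WT SH, whose adjusted p with cardiomyocyte scaling was 0.0509. The median of all genes moves by 0.23 in KO SH against WT SH, 0.24 in WT MI against WT SH and -0.18 in the interaction with that scaling. With it the values were, for KO SH against WT SH *Tjp1* 0.20 and *Nrap* 0.044, for KO MI against WT MI *Tjp1* 0.023, for WT MI against WT SH *Gja1* 0.057, *Dsp* 0.099, *Pkp2* 0.15, *Jup* 0.15, *Dsg2* 0.18, *Dsc2* 0.098, *Ctnna3* 0.16, *Tjp1* 0.12, *Nrap* 0.10, *Perp* 0.10 and *Xirp2* 0.15, for KO MI against KO SH *Dsc2* 0.046, for the interaction *Dsc2* -0.051, *Tjp1* -0.18 and *Perp* -0.11. With the block they were, for KO MI against WT MI *Gja1* -0.031, *Dsp* -0.019, *Dsg2* -0.11 and *Cdh2* -0.10, for KO MI against KO SH *Dsc2* 0.011 and *Perp* 0.0046. Without KO MI replicates 2 and 7 they were, for KO MI against WT MI *Dsg2* -0.0016, *Cdh2* -0.13 and *Nrap* -0.063, for KO MI against KO SH *Dsc2* 0.044 and *Nrap* -0.013. For the interaction *Dsp* was at 0.0050 with DESeq2 and 0.0050 with its size factors, and *Tjp1* at -0.00058 with no filter. With 1 library left out they ran, for KO MI against WT MI *Gja1* -0.023 to 0.090, *Jup* -0.015 to 0.034, *Dsg2* -0.091 to 0.17, *Cdh2* -0.081 to 0.086, *Nrap* -0.041 to 0.22 and *Xirp2* -0.21 to 1.304, for WT MI against WT SH *Perp* -0.31 to 0.12, for KO MI against KO SH *Dsc2* -0.046 to 0.027, for the interaction *Dsp* -0.083 to 0.070, *Pkp2* -0.14 to 0.021, *Tjp1* -0.014 to 0.027 and *Perp* -0.19 to 0.24. The cause of these changes was not tested. Members had at least 1447 counts in every library, and the intervals rest on 4 libraries a group.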
